A study of Homo sapiens with 9 samples.

Results

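The genes of the cytosolic ribosomal proteins, the protein components of the ribosomes that work outside mitochondria, were followed in a triple-negative breast cancer cell line after knockdown of ASAH1. The members were the gene symbols that begin with RPL or RPS and a number, with an optional last letter A, X or L, together with RPLP0, RPLP1, RPLP2 and RPSA. This rule gave 81 genes of the 26485 listed, 49 of the large subunit and 32 of the small subunit. It uses names alone and no measured value.

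The cells were MDA-MB-231, an established human line of mesenchymal character that lacks the estrogen and progesterone receptors. They stably expressed a nonspecific hairpin (NS shRNA), ASAH1 shRNA #1 or ASAH1 shRNA #2, and 3 libraries were sequenced for each of these 3 groups. ASAH1 encodes acid ceramidase, the lysosomal enzyme that splits ceramide into sphingosine and a fatty acid. The comparisons ask what changes in RNA levels when the enzyme is depleted with either hairpin. Every library came from 1 line, and the control was 1 nonspecific hairpin. The libraries are described as biological replicates, but no source used here says whether they came from separate infections, so p-values measure the spread between these libraries. The labels describe selection of RNA with oligo-dT beads, whereas the design text names depletion of ribosomal RNA.

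A ribosome is built in the nucleolus, where RNA polymerase I makes the precursor of most ribosomal RNA, small nucleolar RNPs and processing factors modify and cut it, and ribosomal proteins join in a set order before the subunits leave for the cytoplasm. Nearly all of the proteins are needed in equal numbers, and their mRNAs are among the most abundant of a growing cell. Most of these mRNAs start with a run of C and T bases, the terminal oligopyrimidine (TOP) motif, through which mTOR signalling and the protein LARP1 set their translation without a need for a change in mRNA level.

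The start sites of the members that the results turn on are shown first, since this run is what the family is known for. Of the 81 members, 64 were found in the RefSeq promoter table for GRCh38.p14. Each sequence holds 30 bases, 10 before the annotated start and 20 from it on, and capitals mark the run of at least 5 C or T bases that lies within 5 bases of the start. RPL10A (chr6:35468391-35468420, plus strand) and RPL26 (chr17:8383174-8383203, minus strand) were higher with both hairpins. RPL14 (chr3:40457329-40457358, plus strand) and RPS24 (chr10:78033853-78033882, plus strand) were lower with shRNA #2, and RPS14 (chr5:150449720-150449749, minus strand) was lower with shRNA #1. RPL7A (chr9:133348208-133348237, plus strand) had the longest run, of 25 bases, and RPS27L (chr15:63157458-63157487, minus strand) had none.
RPL10A: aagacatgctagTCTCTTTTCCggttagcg
RPL26: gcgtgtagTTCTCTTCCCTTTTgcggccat
RPL14: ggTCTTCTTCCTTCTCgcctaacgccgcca
RPS24: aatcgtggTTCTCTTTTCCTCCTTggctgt
RPS14: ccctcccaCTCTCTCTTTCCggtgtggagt
RPL7A: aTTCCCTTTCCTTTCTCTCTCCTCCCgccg
RPS27L: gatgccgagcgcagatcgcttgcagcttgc

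Members that rose and members that fell thus both carried the run. It was present at 56 of the 64 matched starts (87.5%), at 35 of 39 in the large subunit and at 21 of 25 in the small subunit, against 35.6% of all 27305 promoters in the table. The matched members without it were RPL10L, RPL13, RPL15, RPL27, RPS15, RPS27A, RPS27L and RPS29. Over the 300 bases from 250 before to 50 after the start, on both strands, CCGGAAG was found in 34.4% of the members and 10.7% of all promoters, and ATGGCGG in 18.8% and 5.72%. GGGCGG was found in 56.3% against 44.6%, TATAAA in 9.38% against 11.95%, and CACGTG in 4.69% against 7.43%. These are matches of letters, and the starts used by these cells were not measured.

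ASAH1 itself was checked first. Its jointly normalized count, the number of reads divided by a size factor set over all 9 libraries, was 4634, 4725 and 4723 with NS shRNA, 1327, 1427 and 1408 with shRNA #1, and 752, 782 and 737 with shRNA #2. The groups did not overlap, and ASAH1 was lowest in every shRNA #2 library. Its log2 fold change from NS shRNA was -1.76 ± 0.05 (SE) with shRNA #1 and -2.63 ± 0.06 with shRNA #2 (limma, Benjamini-Hochberg adjusted p = 9.49e-09 and 5.42e-10). The libraries held 23806003 to 49659106 reads on genes. VIM and CD44, high in mesenchymal breast cancer lines, were at 43556 to 72081 and 24426 to 30088, and ESR1, the estrogen receptor, at 0 to 2.80. EPCAM, an epithelial marker expected near 0, was at 715 to 1330, and PTPRC, the leukocyte marker CD45, at most 8.75. Of 6 listed markers of other cells, PTPRC among them, 2 had a mean of at least 10 normalized counts, so not all were near 0. Both of these were lower with shRNA #2, at log2 fold changes of -0.91 and -0.69.

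The ribosomal protein genes together took 2.21% to 2.73% of the reads on genes in a library. The large subunit share was 1.44% ± 0.0883 (SD, n = 3) with NS shRNA, 1.57% ± 0.0659 with shRNA #1 and 1.53% ± 0.0730 with shRNA #2. The small subunit share was 0.965% ± 0.0876, 0.988% ± 0.0674 and 1.03% ± 0.0798. The large subunit share was 1.53%, 1.54% and 1.65% in the shRNA #1 libraries, all above the 1.34% to 1.51% of the NS shRNA libraries, and the other groups overlapped NS shRNA. The 2-sided exact permutation p was 0.1 and 0.2 for the large subunit and 0.9 and 0.5 for the small subunit, with shRNA #1 and #2 in turn. With 3 against 3 libraries it cannot go below 0.1, so no share could pass 0.05 here, and the test does not show that the shares were alike. Replicate 3 stood apart in every group. For all members it gave the lowest share with NS shRNA (2.21% against 2.55% and 2.45%) and the highest with shRNA #1 (2.71% against 2.46% and 2.50%) and shRNA #2 (2.73% against 2.45% and 2.50%). Without NS shRNA replicate 3 the log2 ratio of the small subunit share with shRNA #1 to that with NS shRNA changed from 0.03 to -0.04, and without shRNA #1 replicate 3 it was -0.02.

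**Figure D1:**
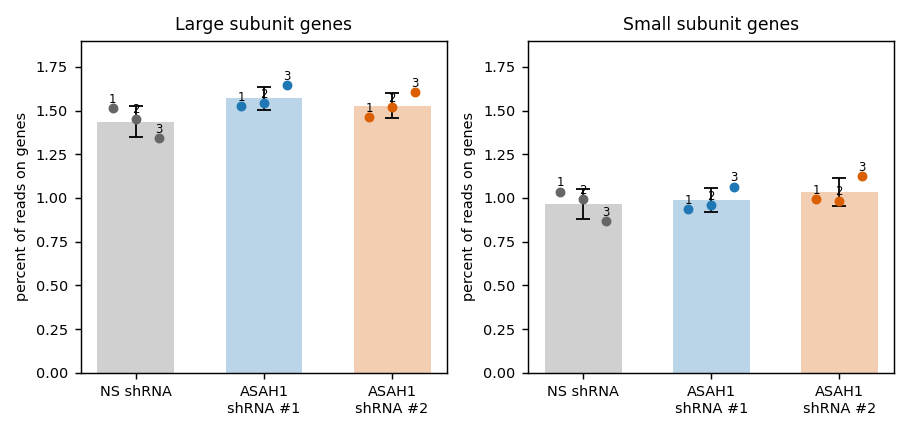
Share of reads on genes taken by large (left) and small (right) subunit genes, in percent. Each point is 1 library with its replicate number, bars are means and error bars SD over 3 libraries; replicate 3 is lowest with NS shRNA and highest with both ASAH1 hairpins.

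The members differed widely in level. Per kb of the shortest principal mRNA, the mean NS shRNA count ran from 23.6 to 39592 in the large subunit (median 12898) and from 9.44 to 39830 in the small subunit (median 14847). The highest levels per kb were those of RPS14 and RPS19 in the small subunit and RPL8 in the large subunit, at 39830, 39555 and 39592. These 3 values lay within 1 percent of each other, less than the spread of each gene over the NS shRNA libraries. At the other end 14 members were under 1000 per kb.

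Many members have processed pseudogenes, copies of their mRNA that were pasted back into the genome. For each member the share of 76-base windows of its mRNA (the read length) with an exact copy elsewhere in GRCh38 was computed, and 69 of 81 members had such a window. In the 20 members with at least 50% of windows copied the median level was 1461 per kb, against 16318 in the 61 others. RPL21, a large subunit protein with 100% of windows copied, had 48.1 to 92.4 jointly normalized counts per library. RPS27, with 94.6% copied, had 21.0 to 38.1, and RPL7, with 63.3% copied, had 21.0 to 54.0. RPS10, with 82.5% copied, had 3.86 to 20.1 and was the only member to fail the filter of a mean of at least 10 normalized counts in the 6 libraries of a comparison. Other members named below with at least 50% copied are RPL7A, RPL9, RPL29, RPL39, RPL41, RPLP0, RPS2, RPS3A, RPS26 and RPSA. How the counting treated reads that align equally well to several places was not tested, so counts of such members are not taken as the level of their mRNA. Not every low member was of this kind: RPL10L (0% copied) and RPL3L (0.290% copied), known from testis and from muscle, were at 23.6 and 38.6 per kb. RPS27L (1.44% copied) was at 413 per kb, but here a mean NS shRNA count of 2525 was divided by an annotated mRNA of 6110 bases. Its copied share is also taken over that length. The same holds for RPL14, whose 345 copied windows are 4.93% of those of an annotated mRNA of 7072 bases, so its low copied share does not show that it has few copies.

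**Figure D2:**
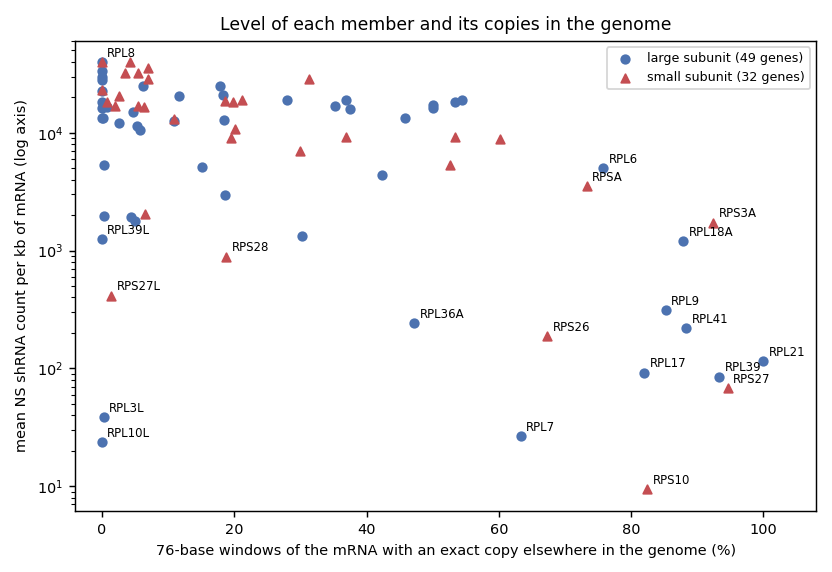
Mean NS shRNA count per kb of mRNA (log axis) against the percent of 76-base windows with an exact copy elsewhere in the genome, 1 point per member. Members at 80% or more of copied windows lie at or below 1723 per kb, and RPL10L and RPL3L are low with almost no copies. RPS27L is low per kb of an annotated mRNA of 6110 bases.

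With shRNA #1 the large subunit genes moved little and in both directions. Of 49 tested, 16 rose and 5 fell at an adjusted p under 0.05, against 32.8% of all 14341 genes tested that rose and 33.3% that fell. Of 31 small subunit genes tested, 8 rose and 3 fell. Fewer members passed the test than genes in general, since 42.9% of the large and 35.5% of the small subunit genes did so, against 66.1% of all genes. The median log2 fold change was 0.07 in the large and 0.06 in the small subunit, against 0.00 over all genes. These small medians depend on replicate 3: without NS shRNA replicate 3, 14 large subunit genes rose and 11 fell, 5 small subunit genes rose and 5 fell, and the small subunit median was -0.02. When a trend over GC content and length was removed from each library, 13 large subunit genes rose and 10 fell, 5 small subunit genes rose and 8 fell, and the small subunit median was -0.04.

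With shRNA #2 more members passed, and most of these were higher. Of 49 large subunit genes 21 rose and 7 fell, and of 31 small subunit genes 14 rose and 2 fell, against 33.5% of 14250 genes tested that rose and 33.4% that fell. The share that passed was 57.1% and 51.6%, against 66.9% of all genes. The median log2 fold change was 0.18 in the large and 0.17 in the small subunit, against 0.01 over all genes. Without replicate 3 of any group, an alternative chosen after the shares per library had been seen, the medians were 0.09 and 0.08, and 15 large subunit genes rose and 9 fell, while 12 small subunit genes rose and 6 fell. The fold changes of members were spread less than those of other genes: their SD on the log2 scale was 0.27 with shRNA #1 and 0.37 with shRNA #2, against 0.74 and 0.82 over all genes. Other lists were spread alike, with an SD of 0.34 and 0.43 for the mitochondrial ribosomal protein genes and of 0.29 and 0.37 for the translation factors with TOP mRNAs described further on. Both comparisons use the same NS shRNA libraries, so their values are set side by side without a test of likeness.

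**Figure D3:**
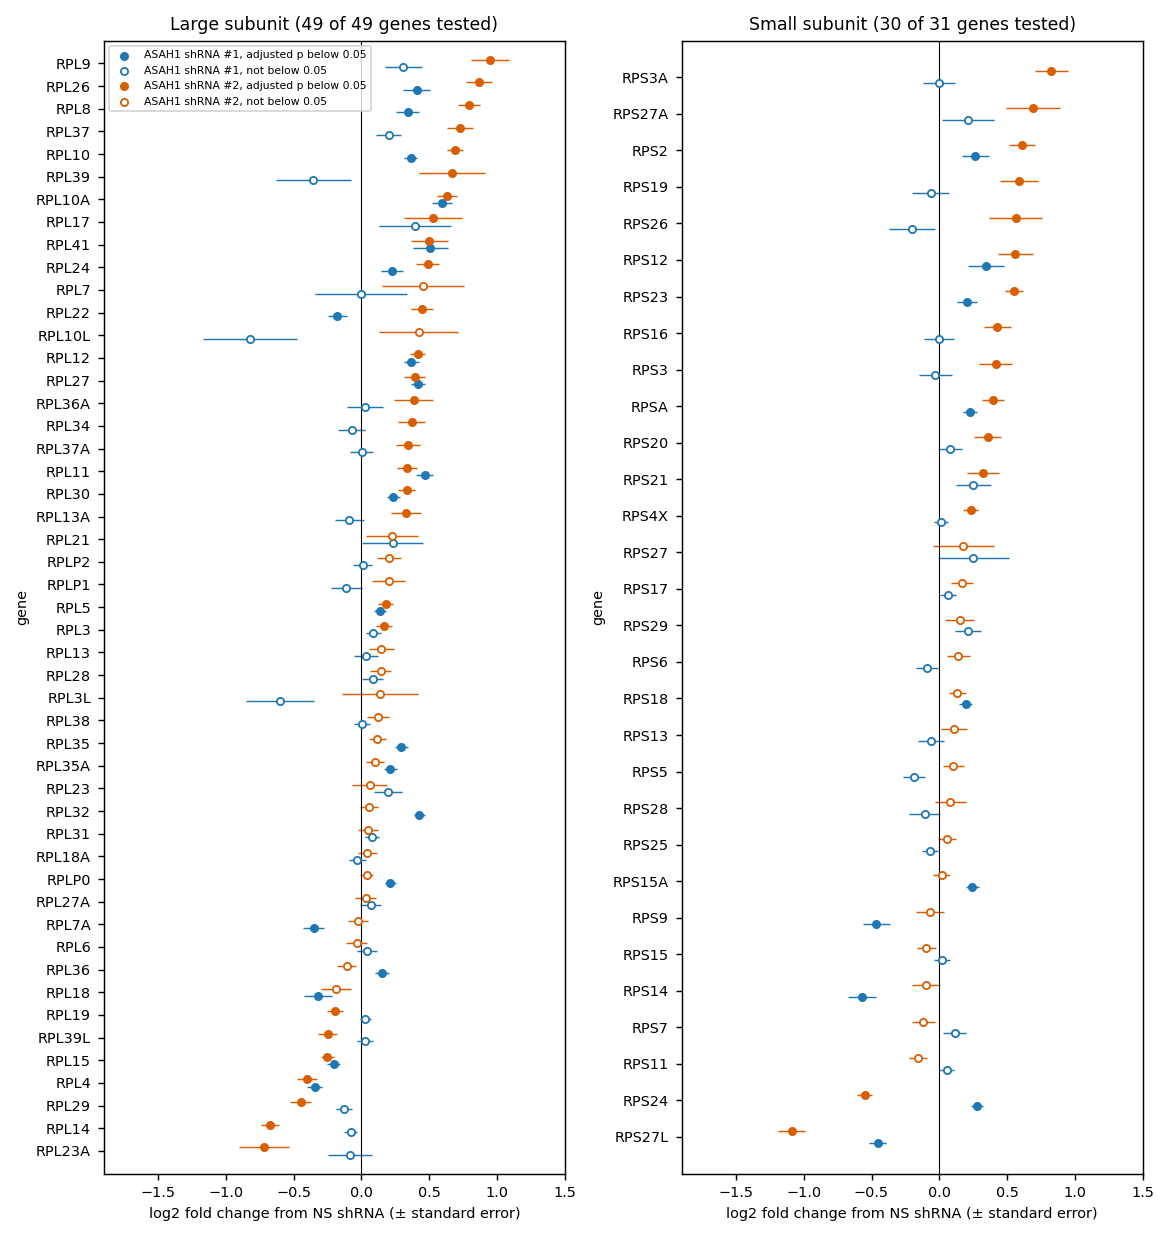
Log2 fold change from NS shRNA (x axis, with standard error) of the large (left) and small (right) subunit genes reported, ordered by the value with shRNA #2. Filled points have an adjusted p below 0.05; RPS24 and RPL22 have filled points on opposite sides of 0.

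Among large subunit genes RPL10A, the protein of the L1 stalk, where spent tRNA leaves, was higher with both hairpins. Its jointly normalized counts were 9829, 9684 and 8268 with NS shRNA, 13042, 13832 and 14917 with shRNA #1, and 14175, 13593 and 15166 with shRNA #2. All 6 knockdown libraries lay above all NS shRNA libraries. The log2 fold change was 0.59 ± 0.07 (adjusted p = 8.93e-05) with shRNA #1 and 0.63 ± 0.07 (adjusted p = 2.78e-05) with shRNA #2. RPL26, which binds the large subunit near the exit tunnel, had 11069, 10428 and 8544 counts with NS shRNA, 12198, 12839 and 14715 with shRNA #1, and 16828, 17610 and 20167 with shRNA #2. Its groups did not overlap and were ordered NS shRNA, shRNA #1, shRNA #2, with log2 fold changes of 0.41 ± 0.10 (adjusted p = 0.00497) and 0.87 ± 0.10 (adjusted p = 2.02e-05). The difference between the hairpins, 0.45 on the log2 scale, also passed (edgeR quasi-likelihood test, adjusted p = 0.00269). Without replicate 3 of any group the value of RPL26 with shRNA #1 was 0.22, and with the GC and length trend removed 0.25, both still past the threshold.

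RPL8, which lies close to the peptidyl transferase centre, showed the same order. It had 41549, 39314 and 33756 counts with NS shRNA, 44440, 47411 and 53207 with shRNA #1, and 65208, 61259 and 71649 with shRNA #2. None of its groups overlapped, and the fold changes from NS shRNA were 1.27 and 1.73 (adjusted p = 0.00609 and 1.24e-05). On the log2 scale its change with shRNA #1 was 0.34, and 0.18 without replicate 3 of any group. RPL10, which joins the large subunit last, in the cytoplasm, had 6180 to 6531 counts with NS shRNA, 8029 to 8474 with shRNA #1 and 9629 to 10889 with shRNA #2, and its groups were again apart. Its log2 fold changes were 0.36 ± 0.05 and 0.69 ± 0.06. RPL9, a protein at the base of the stalk region, had the largest rise of all members with shRNA #2, 0.95 ± 0.14 (adjusted p = 0.000157), but from only 183 to 262 counts with NS shRNA to 377 to 480, and with 85.2% of its windows copied elsewhere.

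RPL5 and RPL11, which with 5S rRNA form the particle that binds MDM2, were higher with both hairpins. RPL11 had 14724, 12975 and 12810 counts with NS shRNA, 17879, 18703 and 19246 with shRNA #1, and 15583, 18228 and 17252 with shRNA #2. Each knockdown library exceeded each NS shRNA library, and the log2 fold change was 0.46 ± 0.06 (adjusted p = 0.000109) with shRNA #1 and 0.33 ± 0.07 (adjusted p = 0.00195) with shRNA #2. RPL5 rose by less, 0.13 ± 0.04 and 0.18 ± 0.06 on the log2 scale. Its call with shRNA #1 was lost when any of NS shRNA replicates 2 and 3 or shRNA #1 replicates 1 and 3 was left out (adjusted p from 0.0552 to 0.0742), and its value was 0.00 once the GC and length trend was removed. Its call with shRNA #2 was lost without NS shRNA replicate 2 or shRNA #2 replicate 3 (adjusted p = 0.0589 and 0.0512).

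The stalk proteins, which recruit the translation GTPases, did not move as a unit. RPLP0, the stalk base, had 17782 to 18032 counts with NS shRNA, 20447 to 21116 with shRNA #1 and 17659 to 18911 with shRNA #2. Only the shRNA #1 group lay apart from NS shRNA, at 0.21 ± 0.04 on the log2 scale (adjusted p = 0.000971), and this call was lost with the GC and length trend removed and the replicate number as a block (adjusted p = 0.0704). For RPLP1 and RPLP2, its acidic partners, the values were -0.11 ± 0.11 and 0.01 ± 0.07 with shRNA #1 and 0.20 ± 0.12 and 0.20 ± 0.09 with shRNA #2, and none passed.

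RPL4, which lines the exit tunnel, was lower with both hairpins. Its counts were 14471, 14907 and 13027 with NS shRNA, 10959, 10792 and 11577 with shRNA #1, and 10434, 9952 and 11704 with shRNA #2. The 3 NS shRNA libraries were the highest of the 9. The log2 fold change was -0.35 ± 0.06 (adjusted p = 0.00056) and -0.40 ± 0.07 (adjusted p = 0.000648). RPL7A, an early-joining protein, was lower with shRNA #1, at -0.35 ± 0.07 (adjusted p = 0.00223), with 15208 to 17874 counts with NS shRNA, 12407 to 14327 with shRNA #1 and 15194 to 17561 with shRNA #2. The hairpins differed from each other for this gene by 0.32 (adjusted p = 0.00439, edgeR quasi-likelihood test).

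RPL14, RPL23A and RPL29 were lower with shRNA #2. RPL14, a surface protein of the large subunit, had 13389, 12169 and 12441 counts with NS shRNA, 12115, 11972 and 11843 with shRNA #1, and 7603, 8738 and 7503 with shRNA #2. The shRNA #2 libraries were far below the rest, at -0.67 ± 0.07 on the log2 scale (adjusted p = 9.23e-06), and the value with shRNA #1 was -0.08 ± 0.05. RPL23A, a docking site for the signal recognition particle at the tunnel exit, had 3915, 3733 and 5167 counts with NS shRNA, 5052, 3908 and 3193 with shRNA #1, and 2489, 3489 and 1946 with shRNA #2. Its shRNA #1 group overlapped the NS shRNA group, and replicate 3 went the other way from the summed family, highest with NS shRNA and lowest with either hairpin. The change with shRNA #2 was -0.72 ± 0.18 (adjusted p = 0.00527), and -0.38 without replicate 3 of any group. For RPL29 it was -0.45 ± 0.08 (adjusted p = 0.000439).

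RPL22, which also binds RNA outside the ribosome, moved in opposite directions. It had 2884, 2825 and 2485 counts with NS shRNA, 2302, 2388 and 2539 with shRNA #1, and 3660, 3401 and 4108 with shRNA #2. The shRNA #2 libraries were above all others, whereas the shRNA #1 libraries overlapped those of NS shRNA. The rise with shRNA #2 was 0.45 ± 0.08 (adjusted p = 0.00072). The fall with shRNA #1, -0.18 ± 0.07 (adjusted p = 0.0421), was lost when NS shRNA replicate 1 or 2, or shRNA #1 replicate 1 or 2, was left out (adjusted p from 0.114 to 0.139), and was -0.28 and passed without replicate 3 of any group. The hairpins differed by 0.62 (edgeR, adjusted p = 4.33e-05). Its paralog RPL22L1, outside the naming rule, had 1513 to 1634 counts with NS shRNA, 3193 to 3323 with shRNA #1 and 2041 to 2381 with shRNA #2, which is 2.06-fold and 1.39-fold higher (adjusted p = 2.35e-07 and 0.00017).

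In the small subunit RPS2, at the entry of the mRNA channel, had fold changes of 1.20 and 1.53, of which the first was no longer called without NS shRNA replicate 3, shRNA #1 replicate 2 or shRNA #1 replicate 3 (adjusted p from 0.0716 to 0.103). On the log2 scale RPS2 was at 0.27 with shRNA #1 and at 0.16 without NS shRNA replicate 3. RPSA, which also serves as a laminin receptor, was higher by 0.22 ± 0.05 and 0.40 ± 0.08 on the log2 scale (adjusted p = 0.00391 and 0.00137), and the first value was 0.12 with the GC and length trend removed, where it missed the threshold with the replicate number as a block (adjusted p = 0.073).

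RPS3A, RPS3, RPS16 and RPS19 were higher with shRNA #2 and differed between the hairpins. RPS3A, which lies at the mRNA exit, had 1692, 1556 and 1244 counts with NS shRNA, 1337, 1447 and 1673 with shRNA #1, and 2452, 2425 and 3065 with shRNA #2. The first 2 groups overlapped and the shRNA #2 group lay above both, at 0.83 ± 0.12 from NS shRNA (adjusted p = 0.000136), though 92.4% of its windows are copied elsewhere. RPS19, which is needed to mature the small subunit rRNA and is mutated in Diamond-Blackfan anaemia, had 23354, 22473 and 16592 counts with NS shRNA, 17179, 19266 and 23018 with shRNA #1, and 30558, 26214 and 36745 with shRNA #2. Its shRNA #2 libraries were again above all others, at 0.59 ± 0.14 (adjusted p = 0.00348), while the shRNA #1 libraries lay within the NS shRNA range. RPS3 and RPS16 rose by 0.41 ± 0.12 and 0.43 ± 0.10 with shRNA #2 (adjusted p = 0.011 and 0.0031), and with shRNA #1 their values were -0.03 ± 0.12 and 0.00 ± 0.11. These rises were smaller without replicate 3 of any group, at 0.30 for RPS19, 0.18 for RPS3 and 0.23 for RPS16, all still past the threshold, and RPS3 was at 0.27 without NS shRNA replicate 3 alone (adjusted p = 0.0166). RPS3 also missed the threshold in limma without the trend (adjusted p = 0.0556). RPS6, the substrate of S6 kinase, had values of -0.09 ± 0.08 and 0.14 ± 0.08, and neither passed.

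RPS14 and RPS9 were lower with shRNA #1. RPS14, whose loss marks the 5q- syndrome, had 25508, 24747 and 20483 counts with NS shRNA, 14188, 15382 and 18059 with shRNA #1, and 21464, 19316 and 25419 with shRNA #2. The shRNA #1 libraries were the lowest, and the shRNA #2 range fell across that of NS shRNA. The log2 fold change was -0.57 ± 0.10 (adjusted p = 0.000777) with shRNA #1 and -0.10 ± 0.11 with shRNA #2. For RPS9, which is linked to decoding accuracy, it was -0.46 ± 0.10 (adjusted p = 0.00274) and -0.07 ± 0.10.

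RPS24, which is needed for processing of the small subunit rRNA, moved in opposite directions with the hairpins. It had 10279, 9778 and 10097 counts with NS shRNA, 12498, 11851 and 12175 with shRNA #1, and 6443, 7246 and 6916 with shRNA #2. The 3 groups were far apart and replicates lay close together. It rose by 0.28 ± 0.04 on the log2 scale with shRNA #1 (adjusted p = 0.000368) and fell by 0.55 ± 0.06 with shRNA #2 (adjusted p = 1.05e-05), and the hairpins differed by -0.84 (edgeR, adjusted p = 1.01e-07). Only with the GC and length trend removed and the replicate number as a block did the rise miss the threshold, at 0.12 (adjusted p = 0.109).

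RPS27L, a paralog of RPS27 and a known p53 target, fell most of all members with shRNA #2. It had 2664, 2338 and 2572 counts with NS shRNA, 1893, 1854 and 1770 with shRNA #1, and 1083, 1411 and 1089 with shRNA #2. The groups did not overlap. The log2 fold change was -0.46 ± 0.06 (adjusted p = 0.00014) and -1.09 ± 0.10 (adjusted p = 5.22e-06), and the hairpins differed by -0.63 (edgeR, adjusted p = 0.000133). Its parent RPS27, at the 21.0 to 38.1 counts given above, had values of 0.25 ± 0.26 and 0.18 ± 0.22, and neither passed (adjusted p = 0.416 and 0.502). Among the other L-suffixed members, RPL39L had 782 to 842 counts with NS shRNA, 816 to 851 with shRNA #1 and 667 to 705 with shRNA #2, at -0.25 ± 0.07 from NS shRNA with shRNA #2 (adjusted p = 0.00913).

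Some other members passed in part. RPL41, the smallest ribosomal protein, was higher by 0.51 ± 0.13 and 0.50 ± 0.14 (adjusted p = 0.00587 and 0.00738), from 97.3 to 114 counts with NS shRNA to 133 to 162 and 130 to 158. However, 88.3% of the windows of RPL41 are copied elsewhere. RPL18 was lower with shRNA #1, at -0.32 ± 0.10 (adjusted p = 0.0206), a call that was lost when NS shRNA replicate 1 or 2 or shRNA #1 replicate 1 or 2 was left out (adjusted p from 0.0638 to 0.0851), while without replicate 3 of any group RPL18 was at -0.52 and passed. RPS12 was higher by 0.34 ± 0.13 and 0.56 ± 0.13, and the first value missed the threshold without NS shRNA replicate 2 or 3 or shRNA #1 replicate 2 or 3 (adjusted p from 0.0534 to 0.104), with a value of 0.19 without NS shRNA replicate 3. Without replicate 3 of any group RPS12 was at 0.29 with shRNA #2. RPS27A, a fusion with ubiquitin, had 3612 to 5821 counts with NS shRNA and 6160 to 10327 with shRNA #2, where it rose by 0.69 ± 0.20 (adjusted p = 0.00986). This rise was 0.28 without replicate 3 of any group, still past the threshold, and missed it in limma without the trend (adjusted p = 0.0542). Its shRNA #1 libraries, at 4603 to 7090, overlapped those of NS shRNA. RPL3, part of the catalytic centre, rose by 0.16 ± 0.06 with shRNA #2 (adjusted p = 0.0252), and leaving out NS shRNA replicate 2 or 3 or shRNA #2 replicate 1 or 3 removed the call (adjusted p from 0.0547 to 0.0908). With the GC and length trend removed RPL3 was at 0.29 with shRNA #2, and passed.

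**Figure D4:**
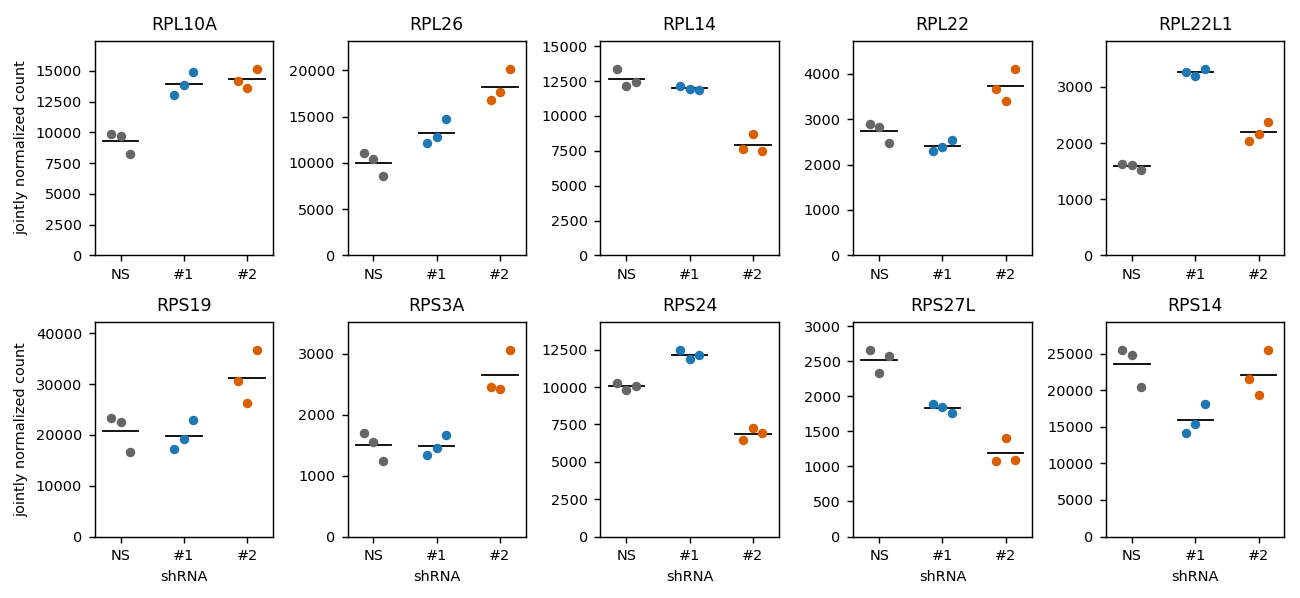
Jointly normalized counts of 10 genes in each library (points) with the group mean (line), for NS shRNA and ASAH1 shRNA #1 and #2. RPL10A and RPL26 are above NS shRNA with both hairpins, RPS27L is below with both, and RPS24 is above with #1 and below with #2; RPL22L1 is a paralog outside the naming rule.

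Between the hairpins, 15 large subunit genes were higher and 9 lower with shRNA #2 than with shRNA #1 of 49, and 14 and 5 of 32 in the small subunit (edgeR quasi-likelihood test on recovered reads). Over all 14360 genes tested 31.4% were higher and 32.6% lower. The median log2 ratio was 0.06 and 0.17, against -0.01 over all genes, and with upper quartile factors the large subunit median turned to -0.01. The 77 mitochondrial ribosomal protein genes, whose products form the separate ribosome of mitochondria, were compared with NS shRNA. Of these 27 were higher and 16 lower with shRNA #1, and 27 higher and 14 lower with shRNA #2, with medians of 0.04 and 0.12. The shares that passed were 55.8% and 53.2%, against 66.1% and 66.9% of all genes in the same comparisons.

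The lists of genes that build ribosomes had larger median changes than the ribosomal protein genes. Of 23 genes for rRNA modification and processing, 20 rose and 0 fell with shRNA #1 and 21 rose and 0 fell with shRNA #2 (limma), with median log2 fold changes of 0.45 and 0.60, and 87.0% and 91.3% passed, against 66.1% and 66.9% of all genes. WDR43, a processome component, had 2037, 2217 and 2383 counts with NS shRNA, 5422, 5756 and 5242 with shRNA #1, and 5025, 5421 and 4886 with shRNA #2, and no group with an ASAH1 hairpin overlapped NS shRNA. DKC1, the pseudouridine synthase, rose by 0.98 ± 0.06 with shRNA #1 and by 1.39 ± 0.06 with shRNA #2. Of 24 assembly and export factors 18 rose and 2 fell with shRNA #1 and 20 rose and 2 fell with shRNA #2 (medians 0.49 and 0.55, 83.3% and 91.7% passing). RRP12, an export factor, had the largest rise of this list with shRNA #1, 1.82 ± 0.05. With shRNA #2 it rose by 0.79 ± 0.06, where the largest rise of the list was 1.11. TSR2, the chaperone of RPS26, fell by 0.60 and 0.41 on the log2 scale.

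Of 14 genes for RNA polymerase I transcription 11 rose and 1 fell with shRNA #1, and 10 rose and 2 fell with shRNA #2 (medians 0.49 and 0.55, 85.7% passing with either). RRN3, the initiation factor that brings the polymerase to the rDNA promoter, rose by 0.71 ± 0.06 with shRNA #1 and by 1.29 ± 0.08 with shRNA #2. UBTF, which binds rDNA, fell by 0.40 with shRNA #1 and was at -0.09 ± 0.06 with shRNA #2, which did not pass. Of 20 translation factor and other genes with TOP mRNAs, 5 rose and 5 fell with shRNA #1 and 11 rose and 5 fell with shRNA #2 (medians 0.01 and 0.26), so 50% and 80% passed, against 66.1% and 66.9% of all genes. Among 16 regulators of these mRNAs and S6 kinases 7 rose and 3 fell, and 8 rose and 4 fell (medians 0.05 and 0.15), and the shares that passed, 62.5% and 75%, stand against 66.1% and 66.9% of all genes. MYC, a transcription factor that drives ribosome production genes, had 6254 to 6561 counts with NS shRNA, 16628 to 17186 with shRNA #1 and 7528 to 8401 with shRNA #2. It rose by 1.40 ± 0.04 with shRNA #1 and by 0.32 ± 0.06 with shRNA #2 (adjusted p = 1.16e-08 and 0.0005). EIF4EBP1, an inhibitor of cap-dependent translation that mTOR switches off, rose by 0.87 ± 0.05 and 0.84 ± 0.06, and TSC2, which restrains mTOR, fell by 0.40 and 0.64. These lists were chosen with earlier results of the data known and were not tested against other genes.

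**Figure D5:**
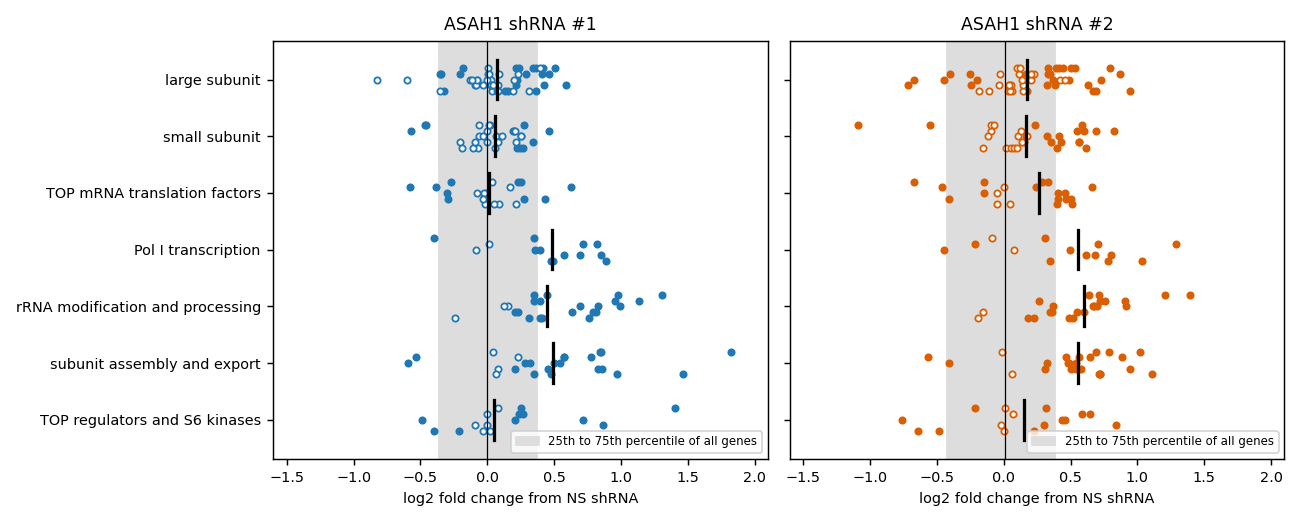
Log2 fold change from NS shRNA of each gene of 7 lists with shRNA #1 (left) and #2 (right). Filled points have an adjusted p below 0.05, thick lines are list medians and the grey band runs from the 25th to the 75th percentile of all genes tested; the medians of both subunits lie inside the band, and those of the 3 ribosome production lists lie to its right.

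Of the ribosome components and paralogs of members outside the naming rule, the paralogs RPL22L1 and RPL7L1 changed most. RPL7L1, a relative of RPL7, had 1742, 2017 and 2002 counts with NS shRNA, 3830, 4177 and 3711 with shRNA #1, and 5070, 4686 and 4516 with shRNA #2. All knockdown libraries were higher, by 2.04-fold and 2.48-fold (adjusted p = 1.78e-06 and 1.83e-07). RPL26L1 rose by 0.50 ± 0.07 with shRNA #1 and by 0.22 ± 0.08 with shRNA #2 (adjusted p = 0.0381), where the call was lost without NS shRNA replicate 2 or 3 or shRNA #2 replicate 2 or 3 (adjusted p from 0.0565 to 0.147). RPL36AL fell by 0.48 ± 0.11 with shRNA #1 and was at 0.09 ± 0.11 with shRNA #2 (adjusted p = 0.471), and the hairpins differed by 0.56 (edgeR quasi-likelihood test, adjusted p = 0.00184). FAU, a fusion of a ubiquitin-like protein and a small subunit protein, had values of -0.06 ± 0.11 and 0.15 ± 0.12, and RACK1, listed as GNB2L1, was higher by 0.23 ± 0.05 with shRNA #1 and by 0.17 ± 0.05 with shRNA #2 (adjusted p = 0.0177), a call lost without NS shRNA replicate 2 or 3 or shRNA #2 replicate 3 (adjusted p from 0.0586 to 0.0671).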

How the data were processed

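Per the labels, the authors used Trimmomatic 0.36 for trimming, STAR 2.7.1a for alignment (hg38), HTSeq for counting and DESeq2 1.28 for each ASAH1 hairpin against NS shRNA. Another paragraph of the study's methods names a different pipeline. The deposited tables hold a normalized signal per library (reads over a size factor). They also hold the authors' log2 fold change with its standard error, a test score and a p-value, none of which was used here. Reads were recovered (whole within 0.1 read), and 0 per-sample columns were unmatched. 28 symbols changed to dates were restored from the other table.

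Each hairpin was compared with NS shRNA by limma 3.58.1 with a trend on log2(signal + 1), after leaving out genes whose mean over the 6 libraries was under 10. The pseudocount understates changes of low genes. Hairpins were compared by edgeR 4.0.16 (quasi-likelihood, TMM) on recovered reads of 9 libraries. Adjusted p below 0.05 was called. Levels per library were reads over median-ratio factors across 9 libraries. Depth was 23806003 to 49659106 reads on genes. The limma and edgeR fits were tested on simulated counts, and the other steps were not.

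Members and lists were chosen with earlier results of these data known. Genes were named by rule: the largest rises and falls per subunit and comparison, the highest and lowest levels, members with settled roles, L-suffixed members, and the largest changes in each pathway list; RPL21 was named after its values were seen. Differences between hairpins are given only for ribosome components and paralogs that passed. SELENOH, UTP4 and EFL1 were not found. Some results are not reported here. Lengths came from GENCODE v44. Levels per kb and copied windows used the shortest principal mRNA, but the GC and length trend used the Ensembl canonical transcript. For some members that transcript is much longer, as for RPS14 with 2146 against 592 bases, and the trend was not refitted with the shorter lengths.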

Additional observations from a re-analysis of the deposited data

Results flagged for a closer look

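The hairpins differed from each other for 26 of the 43 members named (edgeR quasi-likelihood test, adjusted p below 0.05), and the named members were chosen in part for large changes. Over all 81 members 29 were higher and 14 lower with shRNA #2, which is 53.1%, against 64.0% of all genes tested. For the 26, each value below is the log2 ratio of shRNA #2 to shRNA #1. In the large subunit the ratio was above 0 for RPL10L (1.29), RPL39 (1.00), RPL3L (0.78), RPL9 (0.63), RPL22 (0.62), RPL26 (0.45), RPL8 (0.44), RPL10 (0.32) and RPL7A (0.32). It was below 0 for RPL23A (-0.63), RPL14 (-0.60), RPL29 (-0.33), RPL39L (-0.29) and RPLP0 (-0.18). In the small subunit it was above 0 for RPS3A (0.82), RPS26 (0.79), RPS19 (0.64), RPS14 (0.46), RPS3 (0.43), RPS16 (0.41), RPS9 (0.38), RPS2 (0.33), RPS6 (0.22) and RPS4X (0.21), and below 0 for RPS24 (-0.84) and RPS27L (-0.63). RPL10L, RPL3L and RPL39 had at most 105 jointly normalized counts in any library. At least 50% of the windows of RPL39, RPL9, RPL7A, RPL29, RPLP0, RPS3A, RPS26 and RPS2 are copied elsewhere. The calls of RPL23A, RPL3L, RPS2 and RPS6 were lost when single libraries were left out, RPS2 and RPS6 also with upper quartile factors (0.26 and 0.14).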

How the results depend on the processing

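Under every alternative 14 of 22 counts, medians and share ratios of the subunits held. Counts had to stay within a set factor, and medians to keep their direction and stay within the SD of library medians. Share ratios had only to keep their direction, since their p could not pass, so their size was not judged. The small subunit ratio with shRNA #2 held while running from 0.03 to 0.15 with single libraries left out. With shRNA #1 the number of small subunit genes higher was 5 without the limma trend, 5 with the replicate block, 5 without the GC and length trend and 3 with both of the latter, against 8. Removing that trend gave 8 lower (7 with the block) and a median of -0.039 with or without the block, and 10 large subunit genes lower (8 with the block). The large subunit median between hairpins was -0.015 with upper quartile factors. With single libraries left out, the shRNA #1 counts ran from 3 to 11 (large subunit lower), 5 to 10 (small subunit higher) and 3 to 5 (small subunit lower), the small subunit median from -0.022 to 0.089, and the log2 ratio of the small subunit share from -0.038 to 0.087. Without replicate 3 of any group these were 13, 5, 13 and, for the median, -0.056, and with shRNA #2 the large subunit median was 0.087 and 6 small subunit genes were lower. The cause was not tested.

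Over all 223 pairs of a named gene and a comparison, 138 kept direction and call under every alternative and 34 reversed under at least 1. The 178 pairs kept for reporting hold 117 and 25 of these. The 45 others were set aside after the reversals had been seen, as differences between hairpins that did not pass or of pathway genes, and 9 of them reversed. Under upper quartile rescaling the log2 fold change was 0.0040 for RPS3A, 0.0044 for RPL7 and 0.0070 for RPS16 and 0.0092 for RPS6KA3 with shRNA #1, and -0.0060 for RPLP0 and -0.044 for EIF4B with shRNA #2. By DESeq2 RPS6KA3 was 0.0028 with shRNA #1 and EIF4B -0.0022 with shRNA #2. RPL7 with shRNA #1 was 0.039 by edgeR and 0.017 by DESeq2. Without the GC and length trend, with or without the block, it was -0.0026 for RPLP2, -0.098 for RPS4X, -0.083 for RPL39L, 0.11 for TAF1C and -0.14 for POLR1D with shRNA #1, and 0.013 for RPL7A, -0.070 for EIF4B and 0.11 for RPS9 with shRNA #2. With single libraries left out, shRNA #1 values ran from -0.19 to 0.0052 (FAU), -0.26 to 0.071 (RPL23A), -0.0084 to 0.046 (RPL39L), -0.25 to 0.30 (RPL7), -0.058 to 0.063 (RPLP2), -0.12 to 0.076 (RPS16), -0.22 to 0.035 (RPS19), -0.0063 to 0.36 (RPS27A), -0.17 to 0.065 (RPS3), -0.13 to 0.089 (RPS3A), -0.025 to 0.041 (RPS4X), -0.0085 to 0.030 (POLR1D) and -0.031 to 0.036 (RPS6KA3). With shRNA #2 they ran from -0.096 to 0.15 (RPL23), -0.025 to 0.17 (RPL36AL), -0.18 to 0.38 (RPL3L), -0.10 to 0.038 (RPL7A), -0.18 to 0.019 (RPS9) and -0.034 to 0.048 (EIF4B). Without replicate 3 of any group, values with shRNA #1 were 0.22 for RPL23A, -0.17 for RPS27A, -0.11 for RPLP2, -0.056 for RPS4X, -0.0063 for EIF3K and 0.071 for RPS6KA3, and with shRNA #2 -0.048 for EIF4B, -0.29 for RPL3L, -0.051 for RPLP1, -0.016 for RPS6, -0.10 for FAU and -0.13 for RPL36AL.

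The labels do not say whether libraries with the same replicate number belong together. Deviations of such libraries from their group means correlated from -0.60 to 0.44. These correlations were negative between NS shRNA and either ASAH1 hairpin and positive between the hairpins. Libraries with unlike numbers correlated from -0.35 to 0.52. With the number as a replicate block, 13 large subunit genes were higher and 4 lower with shRNA #1, and 18 and 6 with shRNA #2. A denominator without mitochondrially encoded genes was not run, as 0 such genes were listed. Few reads per library limit the values of RPS10, RPL7, RPS27, RPL39 and RPL10L. All of these but RPL10L have most of their windows copied elsewhere.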
